A study of Homo sapiens with 2 samples.

Results

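The proteasome genes were read in U87 cells by 97 of 54613 probe sets, which named 50 genes of 19775. They were chosen by symbol alone, as probe sets annotated to 1 gene whose symbol begins PSMA, PSMB, PSMC, PSMD, PSME, PSMF or PSMG. Of the 50 genes, 42 encode subunits, activators, an inhibitor or assembly factors of the proteasome, on 81 probe sets. The other 8, on 16 probe sets, share only the prefix and are described apart. The cells came from U87, an established line of human glioblastoma. They were transfected with HOXD9 siRNA-2, or with a non-silencing control siRNA, each at 50 nM, and RNA was taken on the second day. There was 1 array for each condition, of the Affymetrix U133 Plus 2.0 type, so that no SD, interval or p-value between conditions can be given. Only 1 of the siRNAs against HOXD9 was on an array, and silencing was transient.

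The proteasome is the protease that degrades proteins tagged with ubiquitin. Its barrel, the 20S core, has outer rings of alpha subunits and inner rings of beta subunits, and some of the beta subunits carry the active sites. The 19S particle caps the barrel, its base holding a ring of ATPases that unfold the substrate and its lid holding the enzyme that removes ubiquitin. In cells exposed to interferon, PSMB8, PSMB9 and PSMB10 take the places of the catalytic subunits PSMB5, PSMB6 and PSMB7 and form the immunoproteasome, which favors peptides for MHC class I.

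Proteasome mRNAs differed little between the arrays, and none passed the study's threshold of more than 2-fold. Of the 42 genes, 41 had a probe set above the filter on dim signals, a mean signal of at least 19.8, the median of all probe sets. On its brightest probe set, 0 of the 41 genes passed 2-fold downward with HOXD9 siRNA and 0 upward, against 4.95% of 11624 genes lower and 0.516% higher. Most of the 41 were bright, however, and among all 1427 genes with a mean signal of 1000 or more only 0.631% were lower by more than 2-fold. The count of 0 is therefore near the background of genes of such signal. Log2 ratios ran from -0.83 for PSMB8 to 0.34 for PSMD3. The immunoproteasome subunits PSMB8 and PSMB9, the assembly chaperone PSMG1 and the lid subunit PSMD11 had the 4 lowest values.

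HOXD9 itself was dim, with signals of 5.58 with HOXD9 siRNA and 19.7 with control siRNA on its brighter probe set, and 11.4 and 9.33 on the other. Probe sets for Bacillus subtilis transcripts reached 18.4 with HOXD9 siRNA and 11.4 with control siRNA, and 18.4 was taken as the background level. By that bound HOXD9 was at least 1.07-fold lower with HOXD9 siRNA, so that the array checks the silencing only weakly. Signals differed in scale, with medians over all probe sets of 18.3 with HOXD9 siRNA and 22.5 with control siRNA. Centering each array on its median adds 0.30 to every log2 ratio. Values below are those of the deposited signals, and the sign of a small ratio depends on that choice. Of the markers looked up, VIM, CD44, NES and SOX2 had a signal above background on at least 1 array, SOX2 with control siRNA alone and only at 19.2, whereas GFAP, S100B and OLIG2 did not on any probe set. Of 6 markers of immune, endothelial, epithelial and neuronal cells, PECAM1 and EPCAM were above background, at no more than 43.4.

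Over the 41 genes the median log2 ratio was -0.19, against -0.25 over all genes kept. With each array centered on its median these medians were 0.11 and 0.05, so that the sign of the median turned. Before centering 38 of the 41 genes were below 0, and after it 34 were above 0. Over all 11624 genes, 9669 were below 0 before centering and 6546 above 0 after it. The median of the proteasome genes lay 0.06 above that of all genes with both scalings, but -0.015 from it after quantile normalization and -0.012 after a loess trend was removed. Set beside genes of like signal, the difference was small as well. The 31 proteasome genes with a mean signal of 1000 or more had a median of -0.18, and all genes of that signal -0.17. For signals of 200 to 1000 the medians were -0.26 over 10 proteasome genes and -0.25 over all 4356 genes.

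**Figure D1:**
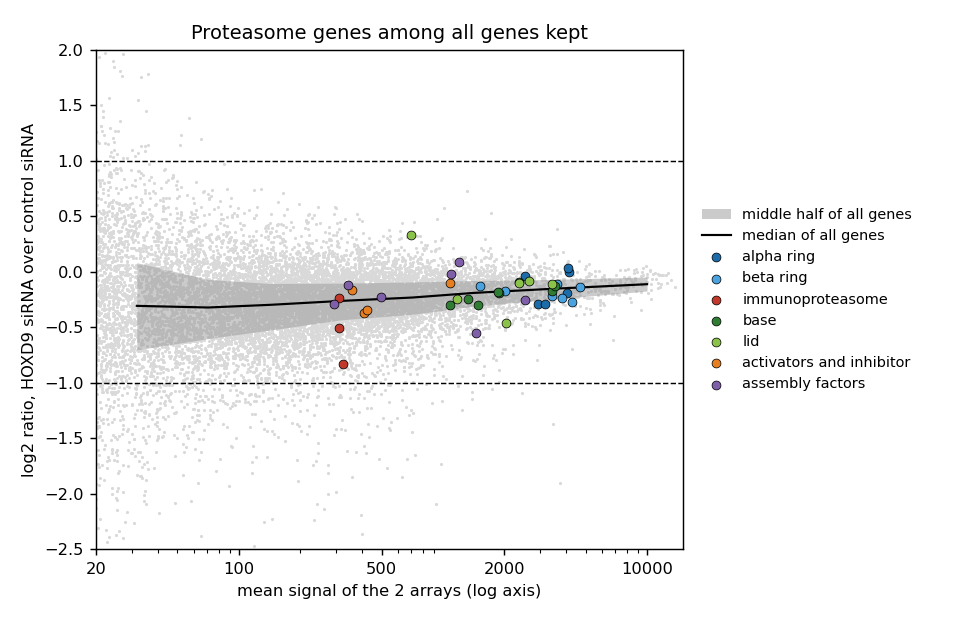
The log2 ratio of each gene on its brightest probe set (y axis, HOXD9 siRNA over control siRNA) stands over the mean of its 2 signals (x axis, log scale), with all genes in gray, their median by signal as a line, the range from the lower to the upper quartile as a band, and 2-fold as dashed lines. Colored proteasome genes follow the line closely, with PSMD3 (0.34) farthest above it and PSMB8 (-0.83) farthest below, and 40 of the gray genes lie outside the plotted range.

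All genes were split by signal into classes, and the proteasome genes were placed among the genes of their own class. By this measure 28 of 41 lay between the lower and the upper quartile, 7 below it and 6 above it. The 7 below it were PSMB8, PSMB9, PSMD11, PSMG1, PSMA3, PSMA4 and PSMB1. The 6 above it were PSMD3, PSMD10, PSMD9, PSMA2, PSMA5 and PSMA7. By the definition of quartiles, as many of all genes of a class lie outside this range as inside it. A place outside it therefore does not set a gene apart. Since genes are not replicates, these counts describe the pair of arrays and carry no test.

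**Figure D2:**
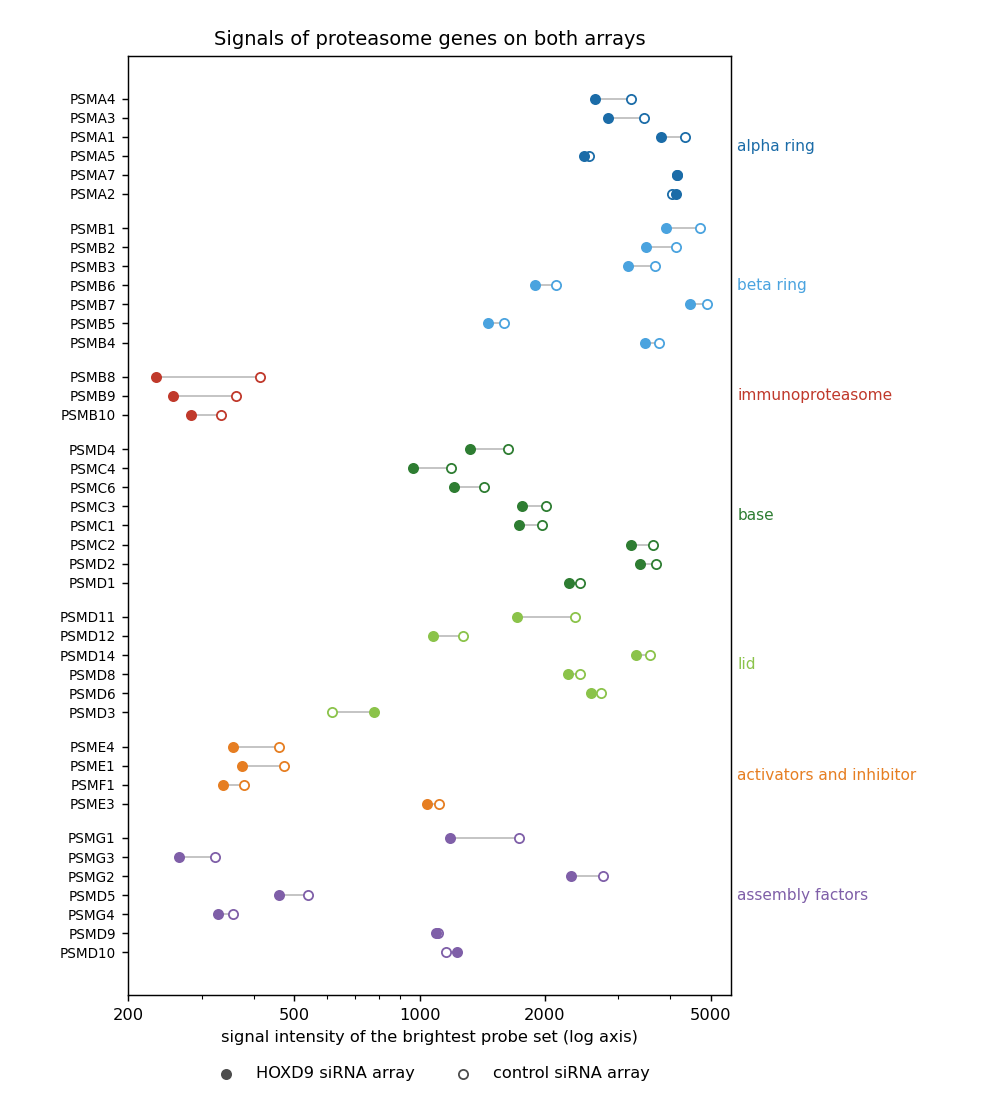
Signals of the brightest probe set of each proteasome gene (x axis, log scale) are shown for the HOXD9 siRNA array (filled) and the control siRNA array (open), by group. Filled points lie left of open ones in all but PSMA2, PSMD10 and PSMD3, although those of PSMA7 nearly coincide, with the widest gap in PSMB8, and signals of different genes come from different probes and are not compared.

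The spread between probe sets of one gene stood in for the missing replicates, although probe sets share the RNA and the array. Over 20 proteasome genes with at least 2 kept probe sets, 51 in all, their log2 ratios had a pooled SD of 0.26. It was 0.10 among bright probe sets, with a mean of at least 500, over 10 genes, and 0.37 among dimmer ones, over 5 genes. Over all 6081 genes with 2 or more kept probe sets the pooled SD was 0.41. Among bright probe sets of all genes it was 0.15, over 784 genes. Probe sets shared a sign in 13 of the 20 genes and differed in sign in 7, namely PSMA2, PSMA3, PSMB4, PSMD9, PSME3, PSMF1 and PSMG4. Of all 81 probe sets, 72 were kept. Of these, 0 passed 2-fold in either direction, against 6.69% of 27307 kept probe sets lower and 0.615% higher. Those shares include dim probe sets, and among genes with a mean signal of 1000 or more only 0.631% were lower by more than 2-fold. The 72 kept probe sets ranged from -0.99 to 0.37, and both ends came from dim PSMF1 probe sets. The other 9 lay within the background on both arrays and give no ratio.

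**Figure D3:**
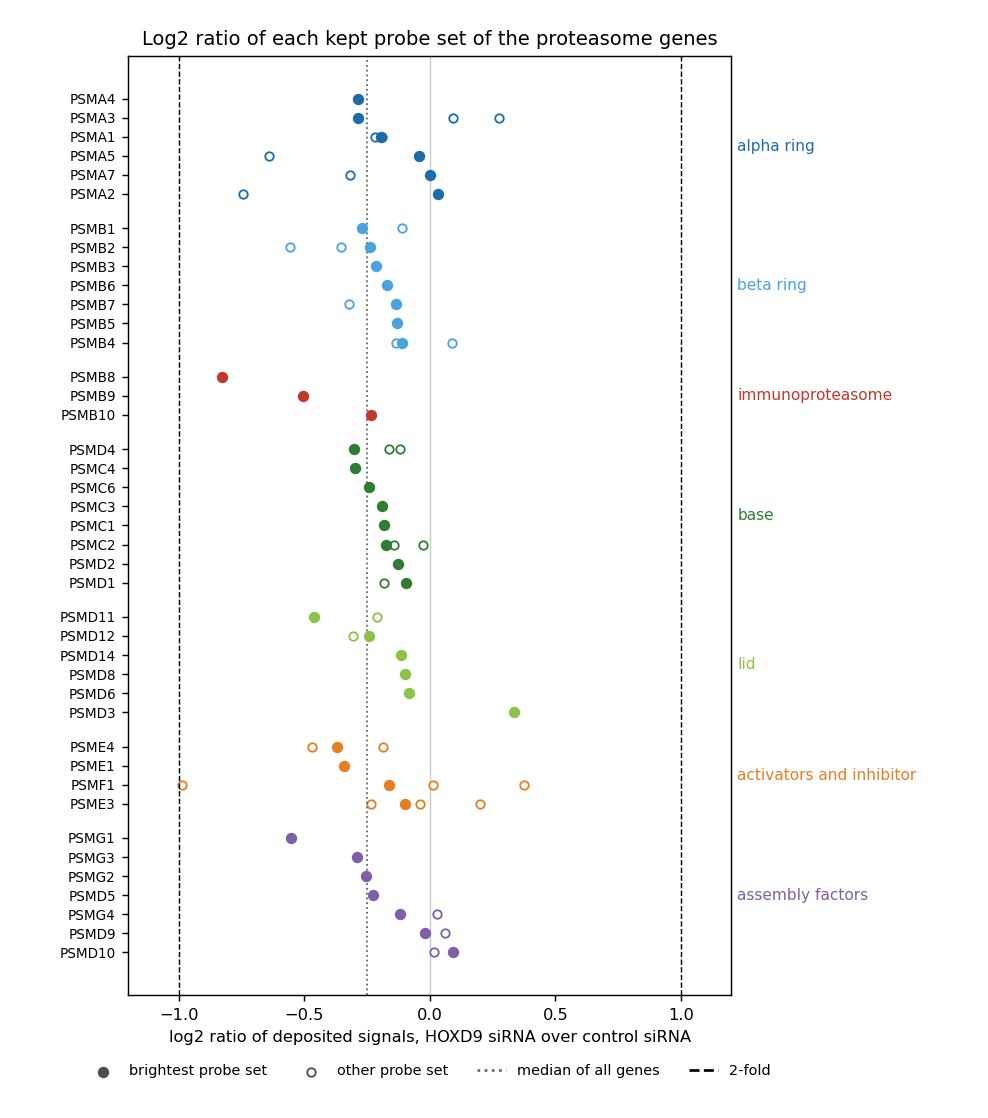
The log2 ratio of each kept probe set (x axis, HOXD9 siRNA over control siRNA) is shown by gene and group, filled for the brightest probe set and open for the others, with a dotted line at the median of all genes, -0.25, and dashed lines at 2-fold. No point crosses a dashed line, and the open PSMF1 points span the whole range.

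The alpha ring shapes the gate of the barrel. Its 6 kept genes had a median log2 ratio of -0.12, or 0.18 after centering. PSMA7 gave signals of 4148 with HOXD9 siRNA and 4149 with control siRNA on its brightest probe set, a log2 ratio of -0.00024, and -0.32 on the other. PSMA2 was the highest of the ring at 0.03, with signals of 4132 and 4035 in that order, while its dimmer probe set gave 359 with HOXD9 siRNA and 600.5 with control siRNA, or -0.74. That difference between 2 probe sets of one gene is nearly as wide as the distance of PSMB8 from 0. PSMA5 showed the same kind of split, with -0.04 on the bright and -0.64 on the dim probe set. PSMA4 (2635 with HOXD9 siRNA and 3214 with control siRNA) and PSMA3 (2836 and 3459) both stood at -0.29, the lowest of the ring. The dim PSMA3 probe sets gave 36.3 and 34.1 (0.09) and 32.4 and 26.7 (0.28), again with HOXD9 siRNA first. PSMA1 was the steadiest, with values from -0.22 to -0.19 over 3 probe sets. PSMA8, the alpha subunit of spermatogenic cells, gave signals of 3.05 with HOXD9 siRNA and 6.93 with control siRNA, both within the background, and was not detectable.

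In the beta ring, which carries the active sites, 7 genes had a median of -0.17 (0.13 after centering) and an SD among them of 0.061, the narrowest of the 7 groups. The 3 catalytic subunits were close to each other. PSMB5, the chymotrypsin-like site, gave signals of 1456 with HOXD9 siRNA and 1592 with control siRNA, a log2 ratio of -0.13. PSMB6, the caspase-like site, gave 1890 and 2128 (-0.17), and PSMB7, the trypsin-like site, 4466 and 4907 (-0.14), each with HOXD9 siRNA first. HOXD9 siRNA signals were thus 91.4%, 88.8% and 91.0% of control siRNA signals. Among the structural subunits PSMB1 was lowest at -0.27, with 3908 and 4710, and its next probe set gave -0.11. PSMB4 was highest with 3486 with HOXD9 siRNA and 3765 with control siRNA (-0.11), and its dimmest probe set gave 373 and 350.4 (0.09). PSMB3 stood at -0.22, and PSMB2 at -0.24 with dimmer probe sets at -0.35 and -0.56.

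PSMB8 and PSMB9 lay lower than the constitutive subunits they replace under every scaling tried, whereas the side of PSMB10 depended on the scaling. PSMB8 gave 233 with HOXD9 siRNA and 414 with control siRNA, a log2 ratio of -0.83 or 56.3% of the control. PSMB9 gave 255 with HOXD9 siRNA and 362 with control siRNA, a log2 ratio of -0.50 or 70.5%. PSMB10 gave 283 with HOXD9 siRNA and 333 with control siRNA, a log2 ratio of -0.24 or 84.9%, close to the median of all genes. Each was read by 1 probe set, so no second reading exists for any of the 3. After centering they stood at -0.53, -0.20 and 0.065, the last with its sign turned. Among all 11624 genes kept, 8.18% had a lower ratio than PSMB8, 23.2% than PSMB9 and 52.3% than PSMB10.

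Set against the subunit each one replaces, PSMB8 was -0.70 from PSMB5 on the log2 scale, PSMB9 -0.33 from PSMB6 and PSMB10 -0.10 from PSMB7. A difference between genes of one array pair is not moved by centering, but it is by methods that depend on signal. After quantile normalization the differences were -0.62, -0.22 and 0.037, and after loess -0.62, -0.23 and 0.046. PSMB10 therefore had no settled side. For PSMB8 the difference exceeded the pooled SD of probe sets, 0.37 for dim ones, whereas for PSMB9 it did not. That SD is a spread within genes, over 5 genes, and does not measure the spread of a difference between genes. It therefore cannot set PSMB8 apart from PSMB9. No test of these differences is possible.

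Promoters of the immunoproteasome genes and of PSMB5 are shown because PSMB8 had the lowest log2 ratio of the proteasome genes and PSMB5 is the subunit it replaces. They are the 250 bases before a listed start of the gene (RefSeq, GRCh38.p14), 5′ to 3′ on the strand of the gene. PSMB8 and PSMB5 have another listed start, whose stretch is not shown. Capitals mark any CCAAT box (CCAAT), antioxidant response core (TGACNNNGC, the site of NFE2L1 and NFE2L2) or ISRE-type element (GAAA, any 2 bases and GAAA again, the kind interferon regulatory factors bind), searched on both strands, where none overlapped another.
PSMB8, chr6:32844680-32844929, minus strand: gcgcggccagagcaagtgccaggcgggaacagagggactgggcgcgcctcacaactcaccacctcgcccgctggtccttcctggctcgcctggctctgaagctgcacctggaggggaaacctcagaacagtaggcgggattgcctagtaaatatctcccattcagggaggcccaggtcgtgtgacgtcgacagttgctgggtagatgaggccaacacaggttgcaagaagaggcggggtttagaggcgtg
PSMB9, chr6:32853942-32854191, plus strand: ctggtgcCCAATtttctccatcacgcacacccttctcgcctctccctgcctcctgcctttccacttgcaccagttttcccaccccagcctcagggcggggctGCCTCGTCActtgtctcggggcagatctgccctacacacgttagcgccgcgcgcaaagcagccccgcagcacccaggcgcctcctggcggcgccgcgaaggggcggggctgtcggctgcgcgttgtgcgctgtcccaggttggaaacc
PSMB10, chr16:67936851-67937100, minus strand: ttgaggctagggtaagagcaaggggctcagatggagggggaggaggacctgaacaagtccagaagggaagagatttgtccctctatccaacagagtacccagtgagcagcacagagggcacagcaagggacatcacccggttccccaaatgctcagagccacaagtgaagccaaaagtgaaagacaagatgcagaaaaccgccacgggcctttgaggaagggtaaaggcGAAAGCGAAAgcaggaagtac
PSMB5, chr14:23035221-23035470, minus strand: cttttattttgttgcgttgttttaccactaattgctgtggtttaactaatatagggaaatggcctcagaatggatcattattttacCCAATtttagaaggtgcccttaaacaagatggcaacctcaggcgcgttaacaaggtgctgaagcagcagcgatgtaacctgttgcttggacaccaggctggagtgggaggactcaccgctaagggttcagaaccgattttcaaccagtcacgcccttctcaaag
The PSMB10 stretch held an ISRE-type match starting 21 bases before the gene start. The PSMB9 stretch, which lies between PSMB9 and TAP1, held a CCAAT box and an antioxidant response core on the other strand, 243 and 148 bases before the start. The PSMB5 stretch held a CCAAT box, and that of PSMB8, where the antisense gene PSMB8-AS1 lies on the opposite strand, held none of these letters in this window. A match is a description of letters and not a bound site.

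Promoter stretches were found for all 3 immunoproteasome genes and 32 of the other 38 genes, and a gene counted when any of its listed starts had a match. The ISRE-type element was in 3 of the 32, or 9.38%, against 3.71% of 27305 genes. The antioxidant response core was in 10 (31.2% against 13.2%). The CCAAT box was in 15 (46.9% against 37.0%). The GC box (GGGCGG, not in capitals above) was in 20 (62.5% against 46.2%). Each of these shares was higher than that of all genes, but the 27305 genes include genes not kept here. A gene with more listed starts can also match more often, and starts were not matched. No difference in share was tested. The 10 genes with the core had log2 ratios from -0.55 for PSMG1 to 0.34 for PSMD3, the same range as all 38.

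The immunoproteasome genes were read beside a list of 12 genes linked to interferon and antigen presentation, of which 10 were kept. Of these, 0 passed 2-fold, against 4.95% of all 11624 genes kept lower and 0.516% higher, so that with 10 genes the count says little. Their median log2 ratio was -0.45, or -0.15 after centering, against -0.25 and 0.05 over all genes kept. TAP1, the peptide transporter gene next to PSMB9, gave 129 with HOXD9 siRNA and 180 with control siRNA (-0.48), close to PSMB9. NLRC5, the activator of MHC class I genes, gave 115 and 192 (-0.74), and IRF1, an interferon-induced transcription factor, 76.4 and 129 (-0.75), in the same order, with -0.23 on a second IRF1 probe set. ISG15, a ubiquitin-like interferon target, gave 238 and 248 (-0.06). The bright genes B2M (-0.25) and HLA-B (-0.13), which encode parts of MHC class I, lay nearer to 0. Of the other kept genes of the list, IFIT1 stood at -0.78, TAPBP at -0.42 and HLA-C at -0.22. TAP2 gave -0.50 on its brightest probe set but 0.09 and 0.23 on dimmer ones. Over all genes with signals of 100 to 200 the median was -0.30, with quartiles of -0.53 and -0.11. On their brightest probe sets TAP1 and TAP2 lay between these quartiles, and NLRC5 and IRF1 below the lower one. What part these genes have in the values of PSMB8 and PSMB9 was not tested.

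**Figure D4:**
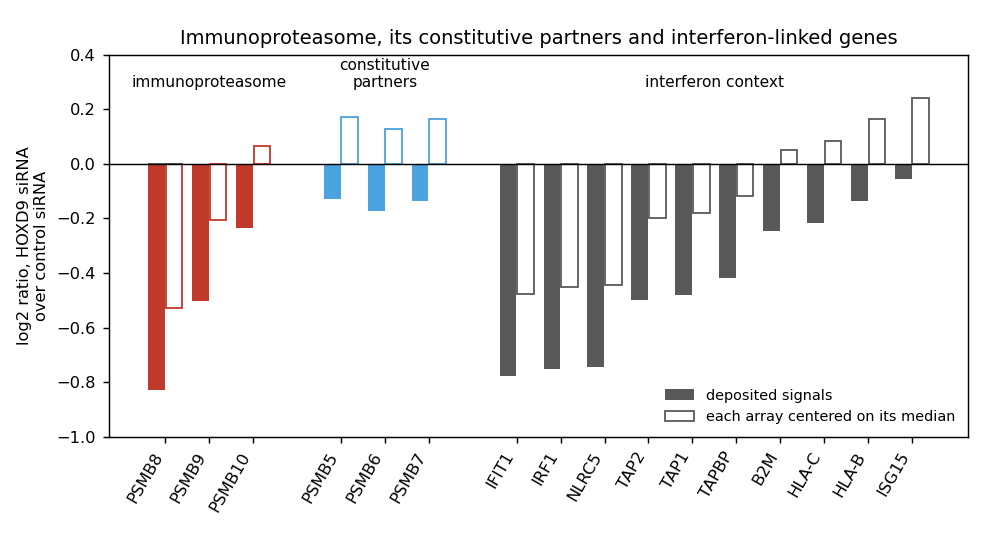
Bars give log2 ratios (y axis, HOXD9 siRNA over control siRNA) of the immunoproteasome genes, their constitutive partners and the interferon-linked genes (x axis), filled for deposited signals and open with each array centered on its median. PSMB8 (-0.83 and -0.53) and PSMB9 (-0.50 and -0.20) stay below 0 in both, as do 6 of the 10 interferon-linked genes. PSMB5, PSMB6, PSMB7, PSMB10 and the other 4 interferon-linked genes turn sign.

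The base unfolds the substrate, and its genes spread about as narrowly as those of the beta ring. Its 8 kept genes had a median of -0.19 (0.11 after centering), an SD of 0.075 and a range of -0.30 to -0.09. Among the ATPases, PSMC4 was lowest with signals of 967 with HOXD9 siRNA and 1187 with control siRNA (-0.30), followed by PSMC6 at -0.24, PSMC3 at -0.19, PSMC1 at -0.18 and PSMC2 at -0.18. PSMC2 gave -0.14 and -0.03 on its other probe sets. PSMD2, a scaffold that receives ubiquitin-like shuttle proteins, gave 3380 with HOXD9 siRNA and 3688 with control siRNA (-0.13). PSMD4, a ubiquitin receptor, gave 1323 and 1633 (-0.30) in that order, and -0.12 and -0.16 on other bright probe sets. PSMD1, the other scaffold, was nearest to 0 with 2280 and 2432 (-0.09).

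In the lid 6 kept genes had the highest median, -0.11 (0.195 after centering), and the widest range of the constitutive groups. PSMD3, a scaffold subunit, had the highest log2 ratio of the proteasome genes, with signals of 780 with HOXD9 siRNA and 618 with control siRNA, 126% of the control. Its log2 ratio of 0.34 was exceeded by 4.16% of all genes and became 0.64 after centering, 0.60 after quantile normalization and 0.58 after loess. It was read by 1 probe set. PSMD11, which clamps the lid to the core, gave 1718 with HOXD9 siRNA and 2365 with control siRNA (-0.46), but -0.21 on its dimmer probe set. PSMD14, the enzyme that removes ubiquitin chains, gave 3304 and 3574 (-0.11), again with HOXD9 siRNA first. PSMD6 (-0.08), PSMD8 (-0.10) and PSMD12 (-0.24 and -0.30) lay between.

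Activators open the barrel in place of the 19S cap. PSME1, an interferon-inducible subunit of the 11S activator, gave 374 with HOXD9 siRNA and 474 with control siRNA (-0.34). PSME4, a large single-chain activator of the nucleus, gave 356 and 460 (-0.37) and from -0.47 to -0.19 over its 3 probe sets, all below 0 although the dimmest turned sign after centering. The 4 probe sets of PSME3, the nuclear form of the 11S activator, ran from -0.23 to 0.20. The brightest gave 1041 with HOXD9 siRNA and 1113 with control siRNA (-0.10), and the next, of almost the same mean, 1149 and 999.2 (0.20). PSMF1, an inhibitor of the core, gave 338 with HOXD9 siRNA and 378 with control siRNA (-0.16), and its next brightest probe set 0.01. Its dim probe sets disagreed, one giving 19.1 and 37.8 (-0.99) and the other 33.2 and 25.6 (0.37), in the same order. The 19.1 lay just above the background of 18.4. The median of these 4 genes was -0.25, or 0.05 after centering.

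Assembly factors join the subunits and then leave the particle. PSMG1 and PSMG2, which work as a pair on the alpha ring, had unlike ratios. PSMG1 gave 1184 with HOXD9 siRNA and 1734 with control siRNA, a log2 ratio of -0.55 or 68.3% of the control, lower than PSMG2 with 2312 and 2754 (-0.25). The second such pair, PSMG3 and PSMG4, stood at -0.29 and -0.12, with 0.03 on a dim probe set of PSMG4. PSMG1 was below the lower quartile of its signal class under the deposited scale, and its value was -0.25 after centering, -0.33 after quantile normalization and -0.34 after loess. It was read by 1 probe set. Of the chaperones of the base that carry the prefix, PSMD5 stood at -0.23. PSMD10, also known as gankyrin, gave 1233 with HOXD9 siRNA and 1158 with control siRNA (0.09) on one probe set and 0.02 on the other. PSMD9 gave 1093 and 1107 (-0.02) in that order, and 0.06 on a dimmer one.

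Genes that work with the proteasome but do not carry its symbols were taken from a list of 31, of which 26 were kept. Of these, 0 passed 2-fold in either direction, against 4.95% of all genes kept lower and 0.516% higher, a count that says little for 26 genes. Their median was -0.17 (0.13 after centering), close to that of the proteasome genes. NFE2L2, the transcription factor of the oxidative stress response, was lowest at -0.71, with 913 with HOXD9 siRNA and 1489 with control siRNA, although a dim probe set gave 0.76. NFE2L1, which drives proteasome genes when the protease is inhibited, was highest at 0.27, with 996 with HOXD9 siRNA and 824 with control siRNA. Its other 2 probe sets gave -0.25 and -0.35, so that its direction depended on the probe set. The remaining genes of the list named here were chosen after their values were seen. UBE3C, a ubiquitin ligase bound to the proteasome, gave 470 and 759 (-0.69) with HOXD9 siRNA first, and its 3 probe sets, from -0.78 to -0.44, shared a sign. ECPAS, a scaffold protein of the proteasome, stood at -0.52 (from -0.87 to -0.18 over 4 probe sets), and PAAF1, a chaperone of the base, at -0.65. The lid and base components outside the prefix were at 0.16 for SEM1 and -0.40 for ADRM1, a ubiquitin receptor. POMP, the maturation factor of the core, was at -0.17, the deubiquitinase USP14 at -0.10 and the polyubiquitin gene UBB at -0.09.

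Of the 8 genes that share only the prefix, 5 were kept, with a median of -0.57 (-0.27 after centering). All 5 were below 0 in the deposited signals, as were 9669 of all 11624 genes kept. After centering 4 of the 5 stayed below 0, PSMD6-AS2 only at -0.0019, and PSME3IP1 turned to 0.14. PSMC3IP, a factor of meiotic recombination, gave 192 with HOXD9 siRNA and 285 with control siRNA (-0.57) and -0.64 on its other probe set. PSMA3-AS1, an antisense RNA of PSMA3, gave 128 and 198 (-0.63), in that order, and -0.62 and -0.84 on 2 dimmer probe sets, against -0.29 for PSMA3. PSMB8-AS1 gave 58.7 with HOXD9 siRNA and 98.6 with control siRNA (-0.75), near the -0.83 of PSMB8. PSMD6-AS2 stood at -0.30, and its second probe set, within the background with HOXD9 siRNA, was at least 1.10-fold lower there. PSME3IP1, which binds PSME3, gave -0.16 on its brightest and from -0.66 to -0.39 on 3 others. PSMD14-DT, PSMD7-DT and PSMG3-AS1 were within the background on both arrays.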

How the data were processed

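Total RNA of U87 cells was read on Affymetrix Human Genome U133 Plus 2.0 arrays, 1 for HOXD9 siRNA-2 and 1 for control siRNA. Each probe set has 1 linear intensity per array, as deposited by the authors. GCOS is named in the processing notes of the submitters, and GeneSpring in the methods of the study. For scaling target, algorithm and detection calls, the entry is "not given in the sources used here".

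After 62 control probe sets were set aside, log2 ratios of HOXD9 siRNA over control siRNA were computed. Of 54613 probe sets, 41091 had 1 gene, 1801 had several and 11721 are unnamed here. Symbols were updated through Entrez numbers with RefSeq GRCh38.p14, which 41037 probe sets matched. The filter was a mean signal at or above the median. A gene took its brightest kept probe set, and the threshold was 2-fold. Ratios were given only as bounds where 1 signal was at or under 18.4, and not at all where both were. Every member and each gene past the threshold or at an end of its group could be named. The members, lists and groups were chosen with earlier results of these data known. Of 48 listed proteasome genes, 41 were kept, and 4 (PSMB11, PSMC5, PSMD7 and PSMD13) were not named by the annotation used here. With 1 array per condition no test was run, and precision is limited by their number. The procedure was tested on simulated data with planted changes larger than 2-fold, so that the test says nothing of smaller changes. A further promoter motif that was searched is not reported here. Alternatives were 3 scalings, 2 other filters, a floor, other choices of probe sets and the platform's own symbols. Python 3.11.15, numpy 2.4.6, pandas 2.3.3, statsmodels 0.14.6 and matplotlib 3.10.9 were used.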

Additional observations from a re-analysis of the deposited data

How the results depend on the processing

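Centering each array on its median added 0.30 to every log2 ratio. It moved the median of the proteasome genes to 0.11, that of the alpha ring to 0.18, of the beta ring to 0.13, of the immunoproteasome to -0.20, of the base to 0.11, of the lid to 0.195, of activators and inhibitor to 0.048, of assembly factors to 0.074 and of the other ubiquitin-proteasome genes to 0.13. The immunoproteasome alone of these kept a median below 0. Its median was -0.20 after quantile normalization and -0.22 after loess, that of activators and inhibitor 0.030 and 0.025, and that of assembly factors 0.044 and 0.038. A shift of more than 0.26, the pooled SD of probe sets of one proteasome gene, counted as a move. The median of all proteasome genes was 0.012 after quantile normalization and 0.0065 after loess, and between -0.21 and -0.19 with the other filters, the floor and the other choices of probe sets.

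The count of proteasome genes past 2-fold was 0 in both directions with every alternative except that without a filter, which gave 1 lower gene, PSMA8 (-1.19), from 2 signals within the background. No paired analysis was possible because each condition had 1 array, and none was left out for the same reason. With so few arrays the spread between cultures is unknown, and PSMB8, PSMG1 and PSMD3 each rest on 1 probe set.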

Other observations

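Probe sets that the annotation gives to a proteasome gene together with another gene belong to no count above. PSME2, the partner of PSME1 in the 11S activator, shares its probe set with MIR7703, which read 1182 with HOXD9 siRNA and 1268 with control siRNA, a log2 ratio of -0.10. PSMA6, an alpha subunit, shares 2 probe sets with PRORP. The brighter read 3173 with HOXD9 siRNA and 3392 with control siRNA (-0.10), and the dimmer 183 and 225 (-0.30) in the same order. The 2 probe sets shared by PSMA2 and C7orf25 gave 0.08 and -0.49. All of them were within the range of the proteasome genes.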
